A study of Mus musculus with 6 samples.

Results

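Among the lamina propria cells sorted as tdTomato+ from the intestine of Flare-TSLP mice, a small set of barcodes carried transcripts of macrophages and dendritic cells. These myeloid cells were chosen by their own counts. A barcode with 1000 to 7500 genes, 2500 to 40000 UMIs (unique molecular identifiers, each marking 1 captured transcript) and under 10% mitochondrial UMIs was a member when it held at least 4 of the 10 genes Ptprc, Lyz2, Csf1r, Cd68, Tyrobp, Fcer1g, C1qa, C1qb, Itgax and Cd74, among them Csf1r, Tyrobp or C1qa, and no UMI of Cd79a, Cd3e, Prox1, Pdgfra or Epcam. The rule found 236 members in 102534 kept cells, or 0.230%.

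Flare-TSLP mice are C57BL/6 mice that express the red fluorescent protein tdTomato from the Tslp locus, through a cassette in its 3′ untranslated region, so that cells transcribing Tslp are labelled. The allele also carries loxP sites, the line came from 1 embryonic stem cell clone, and per the study's methods young adult mice of both sexes were used. TSLP (thymic stromal lymphopoietin) is an epithelial and stromal cytokine. Live tdTomato+ cells of the lamina propria, the connective tissue under the gut epithelium, were sorted after removal of Peyer's patches, stained with hashtag antibodies to MHC class I (H-2) and CD45, and sequenced with a droplet-based 3′ kit. The 6 libraries were 2 of the proximal jejunum (proximal small intestine), 2 of the distal ileum (distal small intestine), and 1 library each of cecum and large intestine. All of the groups carried the reporter, no library of mice without it was analysed here, and no treatment was named in the labels. Each library held cells of 3 hashtags that the labels did not tie to mice, so each library counted as 1 sample, and p-values measure the spread between libraries, which may be technical. The cecum and large intestine libraries are called the large bowel where they form 1 group.

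Intestinal macrophages are kept up largely by incoming blood monocytes, take up dying cells and microbes, present antigen on MHC class II and need the receptor encoded by Csf1r. Conventional dendritic cells (cDC) carry antigen to lymph nodes, with cDC1 specialised in cross-presentation to CD8 T cells. TSLP acts through a receptor made of the Crlf2 and Il7r products, which signals through JAK kinases and STAT5, and dendritic cells and group 2 innate lymphoid cells are among its known targets.

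The members numbered 59 and 40 in the proximal libraries, 75 and 34 in the distal libraries, 12 in the cecal library and 16 in that of the large intestine. They held 540907, 351801, 675138, 224002, 70284 and 240142 UMIs in the same order, and levels are given as CPM, UMIs of a gene scaled to a sum of 1e+06 members' UMIs per library, where 1 UMI was worth at most 14.2 CPM. The cecum sum was the shallowest by far, so that a gene without a UMI there could still have been present at up to 42.7 CPM (the level of 3 counts, for counting error only), against 4.44 to 13.4 CPM in the other libraries. A member held 2559 to 35434 UMIs, with a median of 7222 UMIs and 2795 genes. The median was 15332.5 UMIs in the large intestine and 4992.5 to 8505 in the other libraries. Whole libraries held 109675337 to 206827504 gene UMIs, and the median kept cell held 6772 to 9413. No member barcode was shared between libraries, while each pair of libraries shared 38 to 118 kept barcodes.

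The genes of the rule describe how the members were picked and support nothing else. Tyrobp, an adaptor of activating receptors, was found in 211 of the 236 cells, Lyz2 (lysozyme M) in 192, C1qa (a subunit of complement C1q) in 184 and Csf1r in 162. Csf1r lay between 373 and 518 CPM in the 6 libraries, and Tyrobp between 649 and 1333 CPM. C1qa lay between 1296 and 2330 CPM in 5 libraries and at 5276 CPM in the large intestine. In cells with Pdgfra and Col1a1 UMIs, the fibroblast-like majority of the sort with 76219 cells, the same genes stayed at or below 9.77 CPM for C1qa, 4.51 CPM for Tyrobp and 2.61 CPM for Csf1r. Of the members, 51 held all 10 genes of the rule and 23 held exactly 4, while 26 cells of otherwise the same kind held 3 and stayed outside. The median member with 4 genes had 4120 to 6130 UMIs across libraries, and the median cell just outside had 4166 to 6531.5.

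Genes outside the rule were counted as well, as cells with a UMI. The part of free RNA in these counts was not tested. The macrophage genes Ms4a7, Cx3cr1 (the fractalkine receptor) and Mertk, a receptor for dying cells, were found in 147, 144 and 141 cells. Adgre1, which encodes F4/80, was found in 126 cells and Mrc1, the mannose receptor, in 136. The cDC1 genes Xcr1 or Clec9a were found in 47 cells, the cDC2 genes Cd209a or Clec10a in 55, Siglech of plasmacytoid dendritic cells in 22, and Ccr7 of migrating dendritic cells in 5. The monocyte genes Ly6c2 or Chil3 were found in 9 cells. Of the neutrophil list 6 of 7 genes had UMIs, 411 in all and 71.1 to 242 CPM by library, mostly of Csf3r, the G-CSF receptor, in 73 members and Mmp9, a gelatinase, in 58. S100a8, S100a9, Cxcr2 and Retnlg were each found in 2. Of the mast cell list 7 of 9 genes had no UMI, among them Cpa3, Fcer1a and Mcpt1, as had Mcpt8 of basophils, Epx of eosinophils and Ly6g of neutrophils.

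The share of members among kept cells was 0.341% (exact binomial 95% interval 0.260 to 0.440%) and 0.223% (0.159 to 0.304%) in the proximal libraries. It was 0.352% (0.277 to 0.441%) and 0.167% (0.116 to 0.234%) in the distal libraries. The cecum had 0.0860% (0.0445 to 0.150%), and 0.136% (0.0778 to 0.221%) was found for large intestine. All 4 small intestinal libraries lay above both large bowel libraries, but with each cell thinned to 2500 UMIs before the rule was applied the large intestine, at 0.238%, lay next to distal 2, at 0.236%. The distal mean of 0.260% ± 0.131 (SD, n = 2) and the proximal mean of 0.282% ± 0.0836 (SD, n = 2) differed by -0.0226 percentage points (exact permutation test, two-sided, p = 1, where 2 against 2 cannot go below 0.333). The small intestinal mean of 0.271% ± 0.0905 (SD, n = 4) and the large bowel mean of 0.111% ± 0.0355 (SD, n = 2) differed by -0.160 percentage points (exact permutation test, two-sided, p = 0.133, where 4 against 2 cannot go below 0.0667). With Prox1 cells left out of the total, the shares were 0.292 to 0.428% in the small intestine and 0.0885 and 0.144% in the large bowel, a difference of -0.248 percentage points (exact permutation p = 0.0667). The 2 libraries stained with the second set of hashtags, proximal 2 and distal 2, held the lower share of their region, and within a hashtag set the distal and proximal shares were 0.352% against 0.341% and 0.167% against 0.223%. The sort sets these shares too, since they count cells that came through a tdTomato+ sort and not the tissue.

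**Figure D1:**
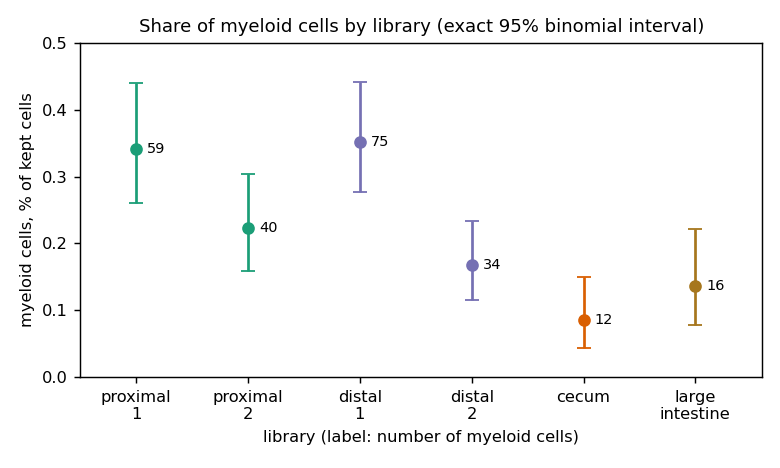
Share of kept cells that were myeloid, in percent, for the 6 libraries, with exact 95% binomial intervals as bars and the number of myeloid cells as labels. The 4 small intestinal libraries lie between 0.167% and 0.352%, above the cecum at 0.0860% and the large intestine at 0.136%. The intervals of proximal 1 and distal 1 lie above those of both large bowel libraries and that of proximal 2 above the cecum's, while the other pairs of small intestinal and large bowel intervals overlap.

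The exclusion of cells with a UMI of another cell type removed more cells than it kept. On the positive side of the rule stood 759 cells, of which 523 were set aside, 339 of them with a Pdgfra UMI, 112 with Prox1, 107 with Cd79a, 89 with Epcam and 50 with Cd3e (a cell may count more than once). The cells set aside had a median of 10259.5 to 16359 UMIs by library, Scrublet called 10 to 30.7% of them doublets, and 26.6 to 44.9% carried more than 1 hashtag. Among the members Scrublet called 15 and 22 carried more than 1 hashtag. Both kinds stayed in. The 8 stromal genes summed were Col1a1, Col1a2, Col3a1, Dcn, Lum and Sparc of the fibroblast list and Mmrn1 and Ccl21a of the lymphatic endothelial list. They made up a median of 0.0494 to 0.127% of a member's UMIs, against 2.17 to 3.13% in the Pdgfra and Col1a1 cells, and passed 0.5% in 14 members.

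Clustering divided the members into 6 groups. The genes that define a group are a description, since they made the division. The division rests on 10 principal components, chosen after the data were seen. With 30 components 23 cells of the Igfbp7 Timp3 group and 21 of the Lyz2-high group fell together, as did 14 of the T, NK or ILC-like group with 31 of the cDC1-like group. Another 13 cells of the cDC1-like group fell together with 67 of the Mrc1 F13a1 group.

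The Mrc1 F13a1 group had 68 cells. Mrc1 lay at 1147 CPM against 205 CPM in the other members, and F13a1, coagulation factor XIII A of monocytes and tissue macrophages, at 453 CPM, in 23.5% of the group's cells against 2.38% of the others. In a list of 7 genes of long-lived or perivascular macrophages 5, Folr2, Lyve1, Cd163, Cd209f and Fcna, were at least 1.5-fold above the other members (the 24 Cd209f UMIs of the group lay in 1 cell, and Fcna was found in 7), as were 5 of 11 macrophage genes. The group was left without a cell type name because immunoglobulin genes led it. Igkc lay at 12420 CPM against 834 CPM and Jchain at 3450 against 225 CPM, although Igkc was found in 79.4% of the group and 79.8% of the others. Nearly all of that signal came from few cells. In this group 4 cells with at least 100 UMIs of Igkc, Igha and Jchain held 9365 of its 9819 UMIs of these genes. Another 4 such cells were in the Igfbp7 Timp3 group and 1 in the cDC1-like group. In all, these 9 members held 11126 of the 12451 UMIs of these genes, or 89.4%. Without them the 3 genes together lay at 822, 826, 498, 1201, 71.1 and 104 CPM in proximal 1, proximal 2, distal 1, distal 2, cecum and large intestine. Barcodes with at most 100 UMIs, which sample the free RNA of a library, held the 3 genes at 31654, 34712, 11750, 11502, 523 and 2178 CPM. The members without the 9 cells thus had the 3 genes below free RNA in each library, and the part of free RNA in these counts was not tested.

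The Il1r2 Msr1 group had 60 cells and was macrophage-like, with 9 of 11 macrophage genes raised. Its leading genes were Lrrc4c, a synaptic adhesion protein, at 374 against 10.9 CPM, Adgrl3 (latrophilin 3, an adhesion receptor) at 3077 against 456 CPM, Pxdc1, Gm5150 and Il1r2, the decoy receptor of IL-1, at 1336 against 250 CPM. Of the 7 genes of long-lived or perivascular macrophages 1 was raised, the phosphatidylserine receptor gene Timd4, found in 37 of its cells.

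The Lyz2-high group had 22 cells and was also macrophage-like, with 5 of 11 macrophage genes raised, Mertk, Cx3cr1, C1qc, Aif1 and Apoe. Others of that list were low in these cells. Adgre1 lay at 82.5 CPM, against 401 CPM in the Mrc1 F13a1 and 285 CPM in the Il1r2 Msr1 group. Cd14 lay at 17.2 against 142 and 64.9 CPM, and Mrc1 at 58.4 against 1147 CPM in the Mrc1 F13a1 group. The Lyz2-high group led in Lyz2 at 24939 against 1381 CPM in the other members, Ctsd (the lysosomal protease cathepsin D) at 3104 against 145 CPM and Fabp5, a fatty acid binding protein, at 2918 against 140 CPM. Gpm6b, a membrane glycoprotein, lay at 722 against 24.8 CPM and Pla2g2d, a secreted phospholipase, at 1292 against 111 CPM. These cells were deep, with a median of 10419.5 UMIs, and they came from few libraries, 9 from distal 1, 1 from proximal 2, 5 from cecum and 7 from large intestine.

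The cDC1-like group had 45 cells. Of the cDC1 genes 7 of 8 were raised, and Wdfy4, needed for cross-presentation, lay at 797 against 58.6 CPM, the cystatin gene Cst3 at 4387 against 489 CPM, and the adhesion molecule Alcam at 729 against 54.8 CPM. It was not pure. Xcr1 or Clec9a was found in 18 of the 45 cells, Cd209a or Clec10a in 19, Ly6c2 or Chil3 in 8, Siglech in 5, Ccr7 in 5 and Mki67 or Top2a, genes of dividing cells, in 13. C1q UMIs were found in 8 of its cells. Genes of monocytes (5 of 7) and of plasmacytoid dendritic cells (4 of 6) were raised as well, so the group carried markers of more than 1 kind of dendritic cell and of monocytes.

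The remaining groups went against the myeloid label. In the Igfbp7 Timp3 group of 24 cells all 8 fibroblast, 5 of 5 blood endothelial and 5 of 6 pericyte or smooth muscle genes were raised. Its Dcn (decorin) lay at 4637 against 220 CPM and its Flt1, a VEGF receptor of endothelium, at 1011 against 7.36 CPM. Stromal genes made up a median of 0.992% of its UMIs, 8 of its cells carried more than 1 hashtag and Scrublet called 4. In the group of 17 T, NK or ILC-like cells 12 of 12 genes of that list were raised, with the chemokine gene Ccl5 at 4126 against 17.1 CPM and the granzyme gene Gzma at 2283 against 0.504 CPM. Leaving both groups out brought the shares of members to 0.284, 0.173, 0.286, 0.133, 0.0788 and 0.136% in the order of the libraries above, an alternative chosen after the data were seen.

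**Figure D2:**
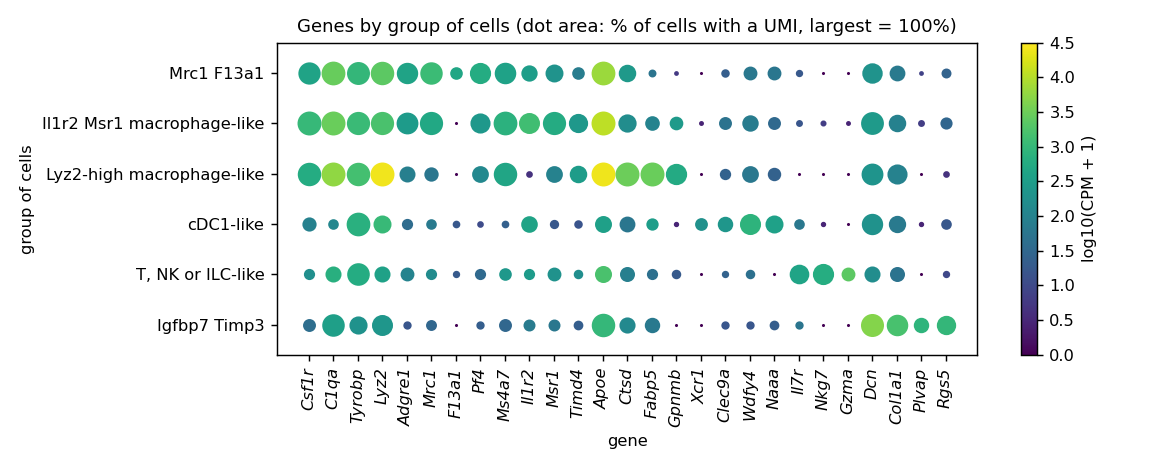
Genes (columns) in the 6 groups of myeloid cells (rows), with dot area for the percent of cells with at least 1 UMI and colour for log10(CPM + 1) of the group's summed UMIs. Lyz2 and Ctsd are highest in the 22 Lyz2-high cells (24939 and 3104 CPM), Il1r2 in the Il1r2 Msr1 group (1336 CPM), Wdfy4 in the cDC1-like group (797 CPM) and Dcn in the Igfbp7 Timp3 group (4637 CPM).

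The groups were spread unevenly over the libraries. The Mrc1 F13a1 group held 19, 17, 14, 13, 1 and 4 cells and the Il1r2 Msr1 group 16, 7, 27, 9, 0 and 1 cells in proximal 1, proximal 2, distal 1, distal 2, cecum and large intestine. The cDC1-like group held 14, 6, 11, 5, 5 and 4 cells, and the Lyz2-high group 0, 1, 9, 0, 5 and 7. These counts were not compared between regions, because genes that define the groups, Ctsd and Adgrl3 among them, differed between small intestine and large bowel over all members.

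**Figure D3:**
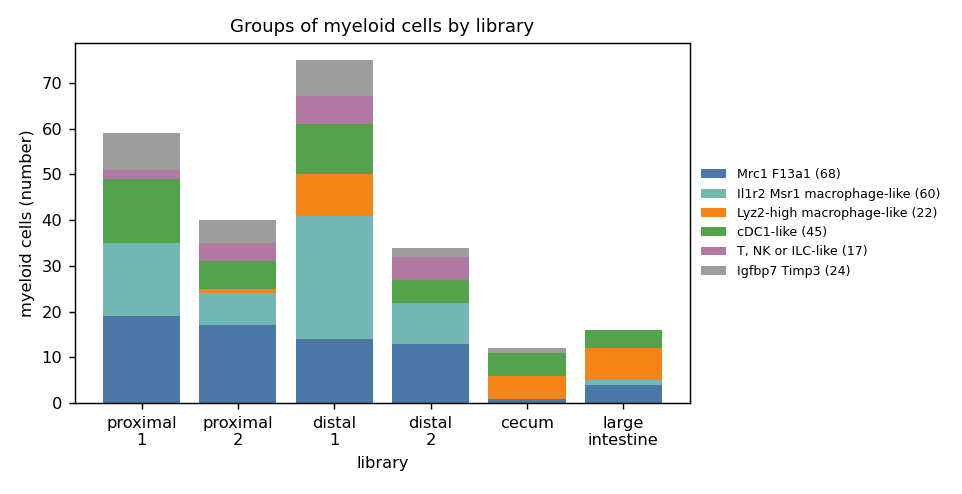
Number of myeloid cells of each of the 6 groups in each library, as stacked bars from 0. The Lyz2-high group supplies 5 of 12 cells in the cecum and 7 of 16 in the large intestine, and 0, 1, 9 and 0 cells in the small intestinal libraries, while the Il1r2 Msr1 group supplies 0 and 1 cells in the large bowel libraries.

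The transcripts that the sort was built on were almost absent from the members. No UMI of tdTomato was found in 236 members, which allows a share of up to 1.27% of cells with a UMI, or 1.43 CPM over all members. In the Pdgfra and Col1a1 cells, of median depth 6949.5 to 10676 UMIs by library, tdTomato was found in 3.49% of cells (1.60 to 4.73% by library) at 4.03 CPM (1.42 to 6.98 CPM by library), so that the lowest library was no higher than the limit over all members. In lymphatic endothelial cells it was found in 1.25%. It had no UMI in 870 B or plasma cells or 394 T, NK or innate lymphoid cells of the same sort, as in the members. Tslp was found in 1 member of the cecum, with 1 UMI, and in 1217 of the 76219 Pdgfra and Col1a1 cells. Whether the members carried tdTomato protein is not in these counts. In the paper's flow cytometry, TSLP-tdTomato+ cells with CD45 were rare and lay only among endothelial cells.

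The gene of the TSLP-binding receptor chain, Crlf2 (5:109702571-109706990, GRCm39), was found in 63 members with 96 UMIs. It lay at 25.9, 39.8, 47.4, 17.9, 85.4 and 108 CPM in proximal 1, proximal 2, distal 1, distal 2, cecum and large intestine. The last 2 values were the highest, but free RNA held 14.1 to 30.2 CPM and the Pdgfra and Col1a1 cells 9.74 to 29.1 CPM, so the lower values lay within the range of both. Between small intestine and large bowel the log2 fold change was 1.67 (SE 0.43), which did not pass the test (edgeR adjusted p = 0.0745). Crlf2 UMIs were found in 13 of 22 Lyz2-high cells, 17 of 45 cDC1-like cells, 15 of 68 Mrc1 F13a1 cells and 12 of 60 Il1r2 Msr1 cells, groups that differ in depth. In the same order Crlf2 lay at 99.7, 50.4, 36.6 and 31.5 CPM. In the large intestine 21 of its 26 UMIs lay in Lyz2-high cells, and the other members had 54.4 CPM. In the cecum 1 of 6 did, and the other members had 113 CPM. Il7r, the partner chain, was found in 27 members, of which 11 belonged to the 17 T, NK or ILC-like cells and 0 to the Lyz2-high cells. Both chains were found together in 6 members.

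Genes known to respond to TSLP in dendritic cells followed no common order of libraries. Ccl17, a chemokine of T helper 2 cell recruitment, had 209 UMIs in 11 cells and lay at 139 CPM in proximal 1 and 198 CPM in distal 1, with no UMI in the other 4 libraries. Ccl22 had 43 UMIs in 7 cells of the same libraries. Tnfsf4, which encodes OX40 ligand, had none. The costimulatory genes Cd86, Cd80 and Cd40 were found in 184, 112 and 86 members, and Cd86 lay at 1220, 998, 1339, 1013, 825 and 645 CPM by library in the order above. Glp2r, the GLP-2 receptor, was found in 53 members at 16.6 to 91.6 CPM, below the free RNA of the same library in each case (53.9 to 183 CPM). The part of free RNA in these counts was not tested, so whether the members express Glp2r cannot be told from these values.

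Hashtag staining was stronger on the members than on the Pdgfra and Col1a1 cells. The median member carried 615, 555.5, 757, 659, 1017.5 and 873.5 hashtag UMIs by library, against 341, 456, 457, 524, 343 and 513 in the Pdgfra and Col1a1 cells. The log2 ratio of the medians was 0.76 ± 0.46 (SD, n = 6 libraries) and was above 0 in 6 of 6 libraries. It was largest in the cecum at 1.57 and smallest in proximal 2 at 0.28. The ratio depended on the measure in the large intestine, where means in place of medians gave 0.06 and hashtag UMIs per 1000 gene UMIs gave 0.03. Lymphatic endothelial cells carried more than the members in the 4 small intestinal libraries (882, 1129, 1064 and 980) and fewer in the large bowel (489.5 and 667). The antibodies bind CD45 and MHC class I together, and the part of each cannot be told apart. The rule did not use the hashtag counts, but Ptprc, which encodes CD45, is 1 of its 10 genes and was found in 218 members, so the staining is not independent of how the members were picked and is given with no test.

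**Figure D4:**
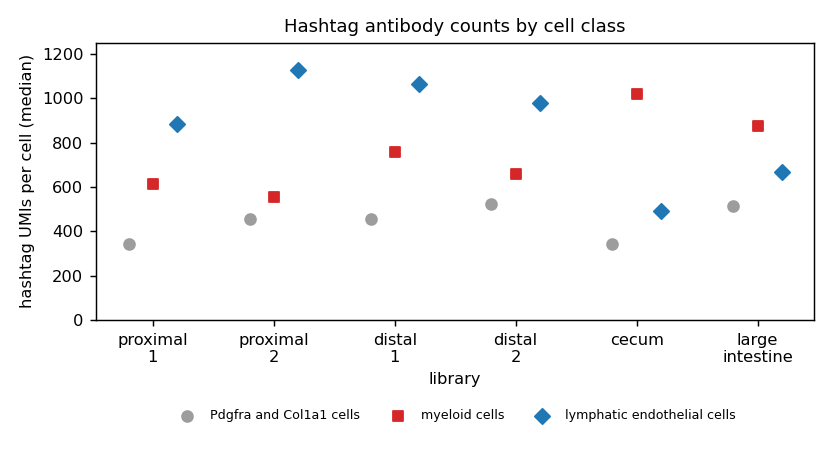
Median hashtag UMIs per cell in each library for Pdgfra and Col1a1 cells, myeloid cells and lymphatic endothelial cells (LECs). The myeloid medians of 555.5 to 1017.5 lie above those of the Pdgfra and Col1a1 cells (341 to 524) in 6 of 6 libraries.

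Effector genes were found in the members of every library. The MHC class II gene H2-Aa was found in 212 members at 5184, 5341, 5223, 4750, 4140 and 5351 CPM by library, and its log2 fold change between large bowel and small intestine was 0.02 (SE 0.20). Il1b, the pro-inflammatory cytokine, was found in 138 members at 654 to 1508 CPM with a log2 fold change of 0.06 (SE 0.28). The T cell attracting chemokine Cxcl9 was found in 111 members and Ccl4 in 113. Il10, a regulatory cytokine, was found in 11 and Tnf in 42. Of the type 2 response list, Mrc1 was found in 136 members, Mgl2, a lectin, in 74 and Retnla in 4 cells of the distal libraries, while Arg1 had no UMI. Apoe, a lipid carrier of tissue macrophages, was found in 201 members and lay at 3932, 4520, 8218, 5344, 6360 and 24227 CPM, highest in the large intestine (log2 fold change 1.65, SE 0.45, edgeR adjusted p = 0.0849, not called).

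To ask whether the members differ along the small intestine, their UMIs were summed per library and the distal and proximal libraries compared across 6678 genes. The chemokine gene Ccl8 (ENSMUSG00000009185, 11:82006007-82007625) rose distally and was the 1 gene called (0.015% of those tested). CCL8 is a macrophage chemokine that in mice acts on CCR8, a receptor of T helper 2 cells. It lay at 12.9 and 19.9 CPM in the proximal libraries and at 193 and 268 CPM in the distal libraries, a log2 fold change of 3.79 (SE 0.39, edgeR adjusted p = 0.0258). The groups did not overlap, and the change held within each hashtag set, at 12.9 against 193 and 19.9 against 268 CPM.

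More cells held Ccl8 distally, 22 of 75 and 10 of 34 against 5 of 59 and 3 of 40, and the highest cell had 27 and 16 UMIs against 3 and 5. A sum alone does not tell more cells with a transcript from more transcripts per cell. In the 2 groups with most cells Ccl8 lay at 43.9 and 48.7 against 220 and 524 CPM (Mrc1 F13a1 group) and at 15.0 and 13.4 against 318 and 330 CPM (Il1r2 Msr1 group). The proximal values rest on 5 and 6 UMIs in the former and on 2 and 1 UMIs in the latter. This split reuses the UMIs of the call and was not tested. Free RNA held Ccl8 at 5.70 and 7.42 CPM in the proximal and 23.0 and 7.56 CPM in the distal libraries, below the members in each. The log2 fold change stayed at 3.33 to 4.08 over the alternatives tried, while the call was lost with limma-voom, without cells of several hashtags, with 10% free RNA subtracted, without the Lyz2-high cells and without distal replicate 1.

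No gene fell distally by the test. Of the 6678 genes 266 had an unadjusted p under 0.05, a share below the 0.05 that arises with no difference. DESeq2 called 2 genes, Ccl8 and the heat shock gene Hspa1b, and limma-voom 0. With the replicate number, which is also the hashtag set, as a block 23 genes were called, 17 of them lower distally, among them Acta2 and Hspa1b. Acta2 was also called in cells with a C1q UMI, a set that keeps 21 of the 24 cells of the Igfbp7 Timp3 group. In that group Acta2 lay at 613 CPM, against 0 to 24.1 CPM in the other groups. The median log2 fold change over all genes was -0.01. Ccl8 was the call in the chemokine (1 of 16 tested) and type 2 response (1 of 8) lists, and the other lists held none. Of 11 macrophage genes none was called, with a median of 0.24. Of 8 cDC1 genes none was called, with 7 fitted lower distally and a median of -0.82. Clec9a lay at 155 and 59.7 CPM proximally and 54.8 and 58.0 CPM distally. Of the 15 immediate early and heat shock genes 12 were fitted lower distally, led by Hspa1b at 1570 and 1913 against 364 and 862 CPM (log2 fold change -1.57, SE 0.36, edgeR adjusted p = 0.55). All 4 tested pericyte or smooth muscle genes were fitted lower distally, with Acta2 (smooth muscle actin) at 150 and 134 against 8.89 and 35.7 CPM (adjusted p = 0.309), and that list summed to 483 and 594 against 111 and 134 CPM. Hspa1a and Hspa1b are near-identical copies, and how their shared reads were split is uncertain.

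Between small intestine and large bowel 5895 genes were tested and 99 were called (1.68%), 51 higher in the large bowel (0.865%) and 48 higher in the small intestine (0.814%), 2 of the former, Lyz2 and Cd68, being genes of the rule, with a median log2 fold change over all genes of -0.05. Il18, Cfp and the lysosomal protease gene Ctsd were among those higher in the large bowel, and Mmp9, the adhesion receptor gene Adgrl3, Plxdc2 and immunoglobulin genes were higher in the small intestine. The large bowel side is 12 and 16 cells. The 22 Lyz2-high cells made up 5 of 12 and 7 of 16 large bowel members. Without them, with 44440 and 91871 UMIs left in the cecum and large intestine, 4 genes were called, Adgrl3, Plxdc2, Hes1 and St6galnac3, all higher in the small intestine, and 3 of them belonged to the 99. Of the 99 genes 88 were still tested, and 80 of these kept their direction. Without the large intestine library 1 gene was called, Adgrl3. Without proximal 2, 9 genes were called, and without distal 2, 39. Without cells of several hashtags 42 of the 99 calls stood and the 98 genes still tested kept their direction. Of the genes named for this comparison, Ly6i, Mcoln2, Cst7, Ccl8, Gpm6b, Grm8, Atg4a, Igha, Jchain, Igkc, Igf1, Ctsb, Lamp1, Lgmn, Junb, Zfp36 and the rule gene Lyz2 lost the call there (edgeR adjusted p = 0.0515 to 0.233). Without the Scrublet doublets 82 of the calls stood, and Ly6i, Fam83f, Gpm6b, Ctsb, Junb and Zfp36 lost theirs (edgeR adjusted p = 0.0510 to 0.0572). Within the 4 libraries of the first hashtag set 3 genes were called, Igha, Jchain and Plxdc2.

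Il18 (ENSMUSG00000039217, 9:50466081-50493633), a cytokine of the IL-1 family that acts on lymphocytes, lay at 31.4, 25.6, 34.1 and 22.3 CPM in the small intestinal libraries and at 199 and 217 CPM in the cecum and large intestine. The groups stood far apart, and the log2 fold change was 2.95 (SE 0.30, edgeR adjusted p = 0.00314). Cfp (X:20791688-20797794), which encodes properdin, the stabiliser of the alternative complement pathway, lay at 68.4, 71.1, 80.0 and 98.2 against 413 and 304 CPM. Its log2 fold change was 2.27 (SE 0.25, edgeR adjusted p = 0.00347), and it was the 1 gene called of 9 complement genes outside the rule, against 0.865% of all genes higher in the large bowel. Within the Lyz2-high cells, Il18 lay at 21.6 CPM (2 UMIs) in distal 1 and at 503 (13 UMIs) and 330 CPM (49 UMIs) in the cecum and large intestine. The 1 Lyz2-high cell of proximal 2 had 123 CPM (3 UMIs). The other members of distal 1, cecum and large intestine had 36.0, 22.5 and 32.7 CPM, from 21, 1 and 3 UMIs. For Cfp, 68 of 73 UMIs of the large intestine lay in Lyz2-high cells, and the other members had 54.4 CPM there and 360 CPM in the cecum, against 33.6 to 98.2 CPM in the small intestine. Distal 1, cecum and large intestine are the libraries with 5 or more Lyz2-high cells, so the step in Il18 within these cells had no replicate in the small intestine and was not tested.

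Of 14 lysosomal genes outside the rule 3 rose and 1 fell in the large bowel, against 0.865% and 0.814% of all genes, and 13 were fitted higher, with a median log2 fold change of 0.86. Ctsd (ENSMUSG00000007891, 7:141929646-141941775) lay at 94.3, 375, 372 and 143 CPM in the small intestine and at 1850 and 2374 CPM in the large bowel (log2 fold change 3.21, SE 0.47, edgeR adjusted p = 0.0160). Lamp1, a lysosomal membrane protein, lay at 458 to 696 against 1110 and 1403 CPM, and the protease gene Ctsb at 1143 to 1920 against 2959 and 3098 CPM. Lgmn, which encodes the asparaginyl endopeptidase legumain, went the other way, at 1418, 1765, 1662 and 2112 against 683 and 762 CPM (-1.13, SE 0.23, adjusted p = 0.0474). Without the Lyz2-high cells Ctsb and Lamp1 turned direction, at -0.29 and -0.03, and Ctsd stayed higher at 1.89 without a call. In the Lyz2-high cells Ctsd lay at 2066 CPM in distal 1 and at 4218 and 3568 CPM in the cecum and large intestine, and in the other members at 103, 473 and 446 CPM. In proximal 2 the 1 Lyz2-high cell had 3035 CPM and the other members had 177 CPM.

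Lyz2 (ENSMUSG00000069516, 10:117111557-117118346), a gene of the rule, lay at 1056, 2402, 3324 and 1103 CPM in the small intestine and at 4937 and 22920 CPM in the large bowel, and Cd68, also a gene of the rule, lay at 90.6 to 125 against 256 and 346 CPM. These levels are a description of cells chosen in part by both genes. The large bowel libraries differed widely in Lyz2, and 1 cell held 188 of the 347 UMIs in the cecum. Without the highest cell of each library Lyz2 lay at 2561 CPM in the cecum, next to distal 1 at 2503 CPM. Lyz2 has a close copy, Lyz1, and how their shared reads were split is uncertain. Other genes named by size among those higher in the large bowel were low in the small intestine. Spic, a transcription factor of iron-recycling macrophages, lay at 0, 5.69, 13.3 and 0 against 71.1 and 154 CPM (4.45, SE 0.77, adjusted p = 0.0289). Cst7 (cystatin F, an inhibitor of lysosomal proteases) lay at 0, 25.6, 11.8 and 0 against 56.9 and 200 CPM. Gpm6b lay at 16.6, 117, 93.3 and 4.46 against 441 and 458 CPM. Mcoln2, a channel of endolysosomes, lay at 0 to 5.92 against 56.9 and 58.3 CPM.

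Ly6i, a member of a family of similar neighbouring genes whose reads may be shared, had no UMI in the small intestine and lay at 56.9 and 54.1 CPM in the large bowel. It was at least 33.2-fold higher there, counting 3 UMIs over the whole small intestinal group as the floor. Fam83f had 2 UMIs in the small intestine and 14 in the large bowel, a ratio of 40.4 per UMI sequenced with a counting interval of 9.28 to 366. Of 17 Ly6i UMIs 15 lay in Lyz2-high cells, as did 15 of 16 Fam83f, 40 of 53 Spic and 66 of 69 Cst7 UMIs. The Gpm6b UMIs of the large bowel, 31 from cecum and 110 from large intestine, were all in Lyz2-high cells, and the other members had none there, against 16.6, 48.9, 32.6 and 4.46 CPM in the small intestine.

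Ccl8 was called here too, at 12.9, 19.9, 193 and 268 against 1565 and 1199 CPM (3.64, SE 0.78, edgeR adjusted p = 0.0484), but it rested on few cells. In the cecum 1 cell held 100 of the 110 UMIs, and in the large intestine 1 cell held 141 of 288. Without the highest cell of each library Ccl8 lay at 7.46, 5.85, 156 and 201 CPM in the small intestine against 156 and 652 CPM in the cecum and large intestine, so that the groups overlapped. Free RNA held Ccl8 at 89.9 and 86.6 CPM in the large bowel. Timd4 lay at 105, 105, 120 and 125 against 370 and 225 CPM (1.42, SE 0.26, adjusted p = 0.0306) and turned to -0.69 without the Lyz2-high cells. Timd4 too rested on few cells, since 1 cell held 37 of its 54 UMIs in the large intestine. Without the highest cell of each library Timd4 lay at 77.2, 44.9, 108 and 110 CPM in the small intestine against 225 CPM in the cecum and 78.8 CPM in the large intestine, so that the groups overlapped. Igf1, a growth factor of tissue macrophages and fibroblasts, lay at 18.5, 105, 62.2 and 103 against 441 and 321 CPM (2.56, SE 0.48, adjusted p = 0.0358). The Pdgfra and Col1a1 cells held Igf1 at 165 to 348 CPM and free RNA at 133 to 293 CPM, and their part in the result was not tested.

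Mmp9 (ENSMUSG00000017737, 2:164780439-164797771), a gelatinase of neutrophils and macrophages, lay at 131, 114, 145 and 121 CPM in the small intestine, in 58 cells, and had no UMI in the large bowel (edgeR adjusted p = 0.0076). Its small intestinal mean was 13.2 times the floor of 3 UMIs over both large bowel libraries (9.66 CPM), which covers counting error only. The Lyz2-high cells had no Mmp9 UMI in any library, including distal 1, where the other members held 168 CPM. Osbpl3, an oxysterol-binding protein gene, lay at 51.2 to 72.1 CPM in the small intestine, a mean of 6.30 times that floor, and had no UMI in the large bowel. Its level was highest in the T, NK or ILC-like group, at 262 CPM, and that group held no large bowel cell. In proximal 2, 14 of its 18 UMIs lay in 1 cell, so the ratio is no bound on its fold. Grm8, a glutamate receptor, had 109 UMIs in 6 small intestinal cells and no UMI in the large bowel. With so few cells the floor gives no bound on its fold, since UMIs of the same cell are not independent. Atg4a, an autophagy protease gene, lay at 37.0 to 67.0 against 0 CPM, under its free RNA of 76.9 to 169 CPM. The fitted fold changes of these 4 genes and of Ly6i are no bounds and are not given.

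Adgrl3 (ENSMUSG00000037605, 5:81167344-81972980) lay at 1592, 1254, 1212 and 1112 CPM in the small intestine and at 56.9 and 0 CPM in the large bowel (-6.34, SE 0.70, edgeR adjusted p = 0.00347). It was found in 47, 29, 43 and 19 small intestinal members and in 4 and 0 of the large bowel. Its log2 fold change ran from -12.0 to -4.61 with a library left out. Plxdc2 (ENSMUSG00000026748, 2:16359634-16763259), a membrane protein with a plexin domain, lay at 420, 341, 441 and 625 against 0 and 8.33 CPM (adjusted p = 0.00314). With 785 UMIs against 2 its ratio was 68.0 per UMI sequenced, with a counting interval of 18.8 to 562. Lrrc4c lay at 80.4 to 151 against 0 and 4.16 CPM, 218 UMIs against 1, a ratio of 37.8 with an interval of 6.71 to 1498. Adgrl3 and Plxdc2 were present in the Pdgfra and Col1a1 cells too (461 to 1136 and 216 to 638 CPM) and in free RNA (355 to 637 and 194 to 473 CPM), in all 6 libraries. Both calls stayed with 10% free RNA subtracted, without the Lyz2-high cells and without the groups led by stromal or lymphoid genes.

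Igha, Jchain and Igkc, the immunoglobulin genes of plasma cells, were called higher in the small intestine (log2 fold change -5.31, SE 0.96, edgeR adjusted p = 0.0314 for Igkc), where free RNA held them at 11502 to 34712 CPM together, against 523 and 2178 CPM in the large bowel. The 9 members with many immunoglobulin UMIs were all in the small intestine. Pecam1 of endothelium, which myeloid cells share, lay at 274, 210, 182 and 246 against 42.7 and 37.5 CPM (-2.38, SE 0.36, adjusted p = 0.0179), and the blood endothelial list summed to 592, 88.1, 397 and 35.7 against 14.2 and 8.33 CPM. Pecam1 was raised in the Il1r2 Msr1 group, which held 0 cells of the cecum and 1 of the large intestine. It was also raised in the Igfbp7 Timp3 group, which held 1 and 0. The part of other cells' RNA in the immunoglobulin, Pecam1 and blood endothelial values was not tested. The immediate early genes Junb, at 2664, 2703, 2440 and 3121 against 1508 and 1237 CPM, and Zfp36, which encodes an mRNA-decay factor, at 1463 to 2085 against 555 and 820 CPM, fell in the large bowel. They were 2 of 15 genes of that list, against 0.814% of all genes, with a median of -0.32.

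Most of the other lists held no called gene. None of the macrophage (11 tested, median 0.28), cDC1 (8, median -0.37), cDC2 (4), plasmacytoid (4), monocyte (5), MHC class II (7 outside the rule, median 0.16), TSLP receptor and responder (10), lipid handling (11), iron and heme (9), interferon (7) and innate sensor (10) genes passed the test, nor did genes of the growth factor receptor (5 outside the rule), mature dendritic cell (2), proliferation (2), T, NK or ILC (3), fibroblast (7), pericyte (4) and blood endothelial (4) lists. The genes named above were the calls in the chemokine and type 2 response (Ccl8, 1 of 16 and 1 of 7), cytokine (Il18, 1 of 9), growth factor (Igf1, 1 of 7), scavenger receptor and long-lived macrophage (Timd4, 1 of 9 and 1 of 5), neutrophil (Mmp9, 1 of 2) and lymphatic endothelial (Pecam1, 1 of 4) lists, against 1.68% of all genes called in either direction. In lists this short 1 call is little to read from. Of the uncalled genes, Fabp5 lay at 48.1, 406, 590 and 22.3 against 1409 and 1799 CPM (2.67, SE 0.82, edgeR adjusted p = 0.112) and the inflammasome gene Nlrp3 at 151 to 214 against 28.5 and 75.0 CPM (-1.51, SE 0.38, adjusted p = 0.0732). Of the 99 genes called, 10 higher in the large bowel were among the 25 leading genes of the Lyz2-high group, and 8 higher in the small intestine were among those of the Il1r2 Msr1 group, while 41 and 35 led no group.

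The most abundant genes of the lists without a call are given by their log2 fold change, large bowel over small intestine. The complement gene C1qc of the macrophage list stood at 1.02 (SE 0.31, edgeR adjusted p = 0.107). The ferritin genes Fth1 and Ftl1, which store iron, stood at 0.99 (SE 0.31) and 1.16 (SE 0.35), and neither passed the test (adjusted p = 0.112 and 0.108). Of the dendritic cell lists, the transcription factor gene Irf8 stood at 0.36 (SE 0.26), the cDC1 adhesion gene Cadm1 at -1.79 (SE 0.53, adjusted p = 0.101), Sirpa, an inhibitory receptor of cDC2 and macrophages, at 0.98 (SE 0.23, adjusted p = 0.0559) and Tcf4 of plasmacytoid dendritic cells at -0.12 (SE 0.27). Of the TSLP list, Cd86 stood at -0.55 (SE 0.23) and the kinase gene Jak1 at 0.13 (SE 0.27). The sensor gene Clec7a, which encodes the beta-glucan receptor Dectin-1, stood at 0.32 (SE 0.27), the interferon response gene Ifitm3 at 0.97 (SE 0.42), and the monocyte gene Plac8 at 1.03 (SE 0.43). The values of these genes did not pass the test in either comparison.

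**Figure D5:**
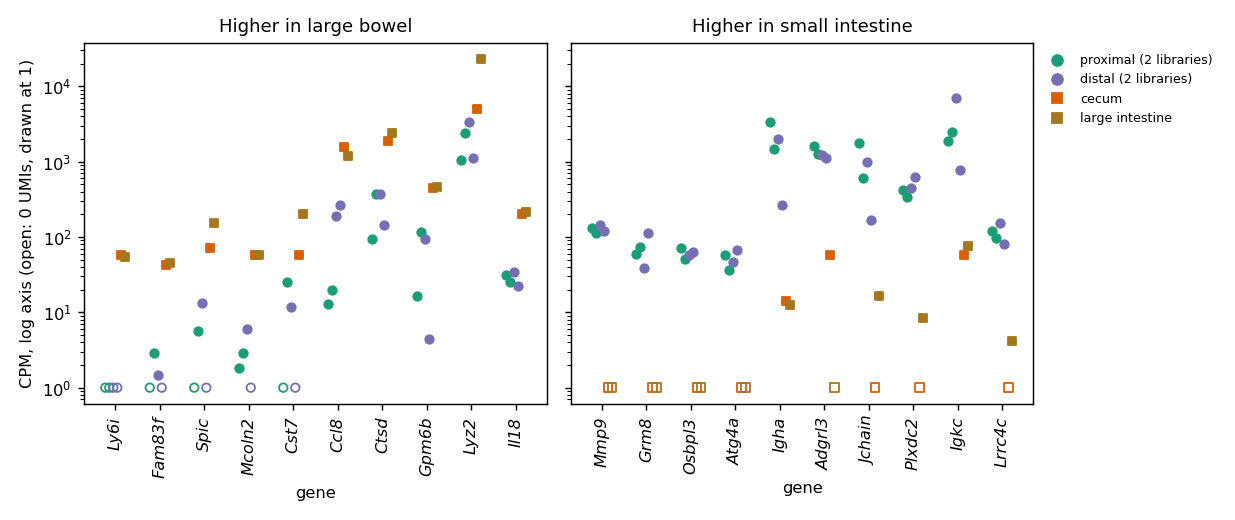
Level in CPM, on a log axis, of the 10 genes named as higher in the large bowel (left) and the 10 named as higher in the small intestine (right), 1 symbol per library of summed myeloid UMIs, with open symbols at 1 for libraries without a UMI. Il18 lies at 22.3 to 34.1 CPM in the 4 small intestinal libraries and at 199 and 217 CPM in the large bowel, and Mmp9 at 114 to 145 CPM against 0.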

How the data were processed

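The authors deposited raw UMI counts of 33697 genes and of the hashtags for every barcode, and these were used as deposited (Cell Ranger 8.1.0 in the labels, 8.0.1 in the file headers, mm39 with the tdTomato sequence). The counts hold no removal of doublets or free RNA, although the study's methods describe both. The study's methods also removed clusters with very few tdTomato+ cells as contaminants, a step that was not applied here. Columns of unlisted samples numbered 0.

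Kept barcodes had 1000 to 7500 genes and 2500 to 40000 UMIs, of which less than 10% were mitochondrial. The members, the 21 marker lists, the 15 pathway lists and the tests were chosen with earlier results of these data known. Scrublet (scanpy 1.11.5, expected rate 0.8% per 1000 cells) called doublets, which were kept. A cell counted as carrying a hashtag where its log count exceeded by 2.5 robust SDs the median of cells in which another hashtag was highest. Free RNA was read from barcodes with at most 100 UMIs. No free RNA was removed except in an alternative. Members were clustered in Seurat 5.3.0 (2000 variable genes, 10 components, resolution 0.5). A leading gene had to be found in at least 20% of a group's cells, and a marker counted as raised at 1.5-fold after adding 50 CPM. Reference classes were cells with Pdgfra and Col1a1 UMIs, lymphatic endothelial, B or plasma, and T, NK or innate lymphoid cells.

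Members' UMIs were summed per library, genes filtered with filterByExpr (minimum count 10) and tested with edgeR 4.0.16 (quasi-likelihood, TMM, Benjamini-Hochberg over all genes tested, threshold 0.05; R 4.3.3), with no block. The SE is the size of the log2 fold change divided by the square root of F. Fold changes are distal over proximal, or large bowel over small intestine. Shares were compared by exact permutation (scipy 1.17.1). The sign-flip test planned for hashtags is not given, since Ptprc is a gene of the rule. Named genes were up to 10 per direction by fitted change whose libraries did not overlap, predicted genes left out, the called genes of each list (up to 4; where none was called, members from the 2 most abundant, given for the larger lists and for the comparison with the large bowel), the 5 leading genes of each group, and the genes of the rule, Tslp, tdTomato, Crlf2, Il7r and Glp2r. A few more were named after their values were seen (Apoe, Fabp5, Nlrp3, Clec9a, Hspa1b, Il10, Tnf, Cxcl9, Ccl4, Arg1, Retnla, Mgl2, Csf3r, S100a8, S100a9, Cxcr2, Retnlg, and the genes of the closing observations). The tests were also run on counts simulated from these data with 200 changed genes. Alternatives were DESeq2 1.42.0, limma-voom (limma 3.58.1), no filter, doublets or cells of several hashtags removed, at least 6 of the 10 genes, only cells with C1q, cells under 0.5% stromal UMIs, 10% free RNA subtracted, 4 regions as groups, a replicate block and each library left out. Added after seeing the data were fits without the stromal and lymphoid groups, without cells of 100 or more immunoglobulin UMIs and without the Lyz2-high cells. Levels of Timd4, Ccl8 and Lyz2 without the highest cell of each library were also taken after seeing the data. Places are GRCm39, from the annotation given with the reference. Intervals and floors cover counting error only. Some genes are not reported here.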

Additional observations from a re-analysis of the deposited data

Results flagged for a closer look

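Of 34 values checked for a library that stood apart from the others of its group, 1 was found. In proximal 1, 23.7% of the members fell in the cDC1-like group, while the nearest of the other small intestinal libraries had 15.0% and the lowest 14.7%. The gap was 0.963 of the range, above Dixon's critical value at 95%. The other 3 libraries lie close together, and a flag in a small share of such checks arises by chance. The group's 14 cells in proximal 1 set the value.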

How the results depend on the processing

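For genes called between proximal and distal small intestine (1), DESeq2 gave 2, cells under 0.5% stromal UMIs 2, C1q cells 5 (1 higher and 4 lower distally, the latter Acta2, Myl9, Tagln and Ctnna3), no filter 68, and limma-voom, no cells of several hashtags, free RNA subtracted and no Lyz2-high cells 0 each. Acta2 and Tagln lay highest in the Igfbp7 Timp3 group, of which 21 of 24 cells held a C1q UMI. Leaving out a library gave 0 to 44 (44 without proximal 1, 5 without proximal 2, 0 without distal 1 and 25 without distal 2), in fits where the lone library of a region is taken to vary like the others. The replicate block gave 23, 6 higher and 17 lower distally, among them Acta2, Myl9 and Hspa1b. Same-numbered libraries share a hashtag set, but the labels tie the numbers to no mouse, litter or day, and the deviations of same-numbered libraries correlated at 0.144 over 6678 genes, with 2 pairs.

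For genes called between small intestine and large bowel (99), DESeq2 gave 178, no filter 615 (186 higher and 429 lower in the large bowel), limma-voom 24 (22 higher and 2 lower), at least 6 genes 246, C1q cells 162, 4 regions 150, free RNA subtracted 53, no cells of several hashtags 47, no Lyz2-high cells 4 and the libraries of the first hashtag set 3. DESeq2 shared 81 of the 99 calls, limma-voom 24, and the fit without the stromal and lymphoid groups 76. Leaving out a library gave 1 to 112, with 56 without proximal 1, 9 without proximal 2, 39 without distal 2 and 1 without the large intestine. Without the Lyz2-high cells Timd4 turned to -0.69, Ctsb to -0.29 and Lamp1 to -0.032. Over 602 values of named genes under alternatives, 354 kept the call, 245 lost it and 3 turned direction. The cause of these changes was not tested. The hashtag ratio was 0.592 to 0.849 with a library left out. Share differences were -0.115 to 0.0698 percentage points (distal minus proximal, so that the direction depended on the library left out) and -0.194 to -0.133 (large bowel minus small intestine) with a library left out, in designs too small to pass the test. Depth limits the large bowel, with 310426 UMIs in its sums, where 3 UMIs are 9.66 CPM.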

Other observations

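Growth factor genes that act on stromal cells were found in many members. Pdgfb, which encodes a ligand of the PDGF receptors of mesenchymal cells, was found in 88 members at 79.5, 73.9, 63.7, 75.9, 157 and 70.8 CPM in proximal 1, proximal 2, distal 1, distal 2, cecum and large intestine. In the Pdgfra and Col1a1 cells Pdgfb lay at 0.279 to 4.34 CPM and in free RNA at 0.493 to 13.8 CPM, below the members. Tgfb1, which encodes the cytokine TGF-beta 1, was found in 168 members at 242, 324, 241 and 321 CPM in the small intestine and 71.1 and 146 CPM in the large bowel (log2 fold change -1.06, SE 0.33, edgeR adjusted p = 0.113). The groups of libraries do not overlap, but the difference did not pass the test.

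The inflammatory chemokine gene Ccl3 was found in 95 members at 154 to 364 CPM, and Ccl24, an eosinophil chemokine, in 39 members at 109, 185, 72.6, 35.7, 14.2 and 16.7 CPM by library. Ccl24 was highest proximally, yet neither comparison called it (log2 fold change distal over proximal -1.31, SE 0.42, edgeR adjusted p = 0.972, and large bowel over small intestine -2.49, SE 0.82, adjusted p = 0.124). Genes of iron handling were found in the members, Hmox1 (heme oxygenase) in 100 and the iron exporter gene Slc40a1 in 51, the latter at 42.5 to 62.5 CPM against 36.5 to 57.2 CPM in free RNA. The proliferation genes Mki67 or Top2a were found in 42 members.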
